A study of Rattus norvegicus with 31 samples.

Results

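The genotype by cold interaction in rat gastrocnemius, a calf muscle made mostly of fast fibres, is the change of a transcript in the cold in Ucp1 knockout rats minus its change in the cold in control rats. It asks which cold responses of the muscle depended on Ucp1. It was estimated from all 31 libraries of the series for 10082 of the 11289 genes listed, those that passed a filter on low counts. Apart from that filter no measured value set which genes entered, but the genes named in the text were in part picked by their p-values. Values are on the log2 scale, so 0 means the same fold change in both genotypes, 1 a fold change 2 times as large in knockouts, and a negative value a smaller rise or a deeper fall in knockouts.

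The animals were female Sprague Dawley rats aged 7 months, kept on chow. Controls (labelled WT, n = 8) and knockouts (labelled Ucp1 KO, n = 7) stayed at room temperature, and 8 controls and 8 knockouts spent 14 days at 4 °C. Each rat gave 1 QuantSeq library, in which reads come from the 3′ ends of polyadenylated transcripts. The labels do not say how the knockout was made or whether the controls were littermates. Ucp1 itself was not analysed here, so the genotype rests on the labels.

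Ucp1 is the uncoupling protein of brown fat mitochondria: it lets protons return to the matrix without making ATP, so that fuel oxidation yields heat. A rodent without it has to hold its temperature in the cold by other means, among them shivering, in which skeletal muscle contracts to make heat. Muscle responds to sustained activity with slow-fibre and oxidative genes, and also expresses genes of fatty acid synthesis, in which Acly supplies acetyl-CoA, Fasn builds the chain and Scd desaturates it.

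Library totals ran from 6559971 to 11859690 counts, and levels are given as CPM, the counts of a gene scaled to a common library total. Fast-fibre markers were abundant, with Myh1, the fast IIx myosin, at 16160 to 41720 CPM and Acta1, skeletal muscle actin, at 20680 to 51820 CPM, while Myh2 and Myh4 are not analysed here. Of the white adipocyte markers, Cfd, a complement protease of adipocytes, stood at 26.5 to 810 CPM and Fabp4 at 62.6 to 218 CPM. In their lowest library Lep was at 0 CPM, Adipoq and Retn at 0.313 CPM and Plin1 at 0.417 CPM. With medians of 20.9 CPM for Adipoq and 6.47 CPM for Plin1 the tissue held some fat, which is not shown for every library. Room temperature controls 1 and 2 stood apart on the second principal component of log2 CPM (14.1% of the variance), with scores of -62.3 and -79.8 against -9.75 to 17.2 in the libraries of the other groups. The first component (35.3%) had 7 libraries under a score of -30, spread over all 4 groups. In bulk muscle a change in the share of a cell type and a change in RNA per cell cannot be told apart.

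No interaction passed. By edgeR's quasi-likelihood test 0 of 10082 genes had an adjusted p under 0.05 (0%), and the smallest adjusted p was 0.125. An unadjusted p under 0.05 was reached by 737 genes (7.31%), 275 higher and 462 lower in the knockout response, where 504 would be expected with no effect. DESeq2 called 1 gene (0.00886% of those it tested) and limma-voom with sample quality weights 4 (0.0397%), and Bhlhe41 was the gene common to both. The single cold effects passed far more often: 86 genes in controls (0.853%) and 139 in knockouts (1.38%). The interaction combines 4 group means, and its SE had a median of 0.31 against 0.21 and 0.22 for the cold effects. For 6108 genes (60.6%) the 95% interval of the interaction lay between -1 and 1, so that a difference of over 2-fold between the 2 cold responses fell outside it. For the other genes a difference of that size was within the interval. The median interaction over all genes was 0.08, with 60.0% above 0, and estimates below are read against that.

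**Figure D1:**
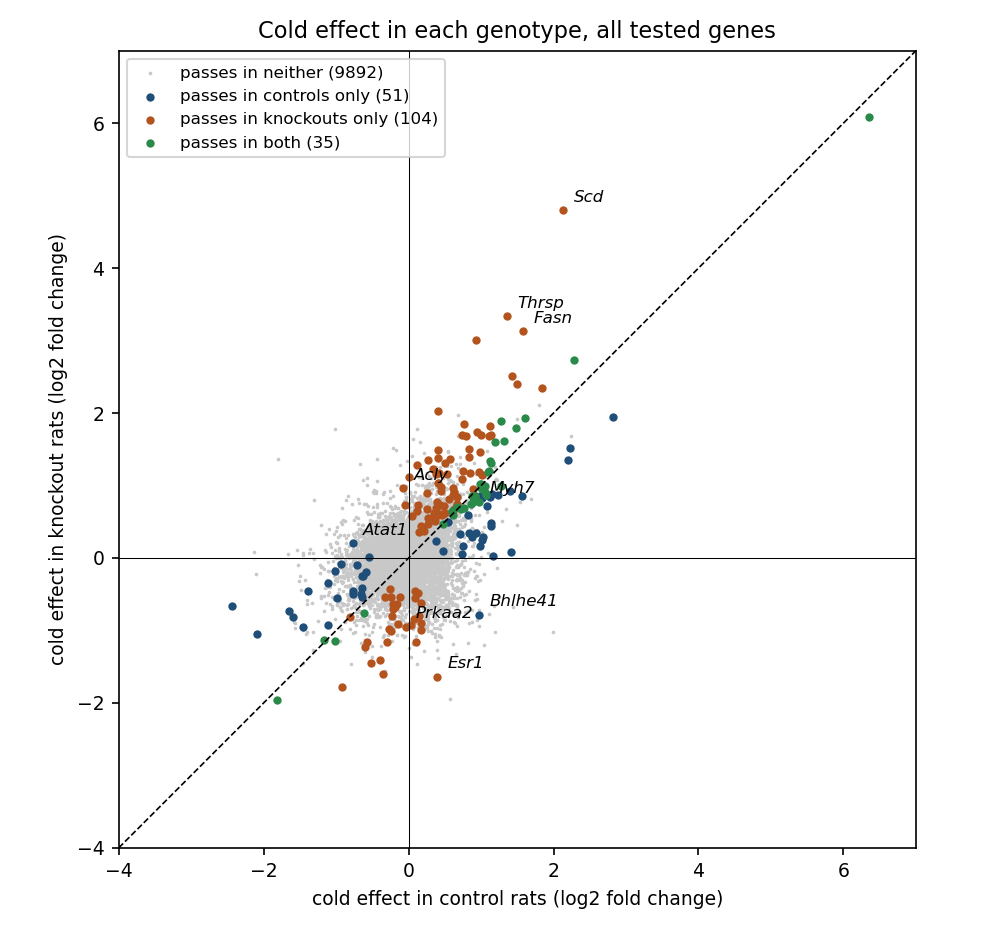
Each point is 1 of 10082 genes, with the log2 cold effect in control rats on the x axis and in knockout rats on the y axis; the dashed line marks equal effects and colours mark in which genotype the cold effect passed (adjusted p under 0.05). The 35 genes that passed in both lie along the line, Scd, Thrsp and Fasn lie above it, and Bhlhe41 and Esr1 lie in the quadrant of a rise in controls and a fall in knockouts.

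The interaction with the smallest p was that of Bhlhe41, a basic helix-loop-helix repressor of transcription that acts in the circadian clock and in muscle metabolism. In room temperature controls it stood at 3.86 to 11.8 CPM (median 6.85), and in cold controls at 6.70 to 19.9 CPM (median 15.1). In room temperature knockouts it stood at 7.27 to 14.8 CPM (median 10.2), and in cold knockouts at 3.76 to 9.81 CPM (median 6.37). Cold controls were thus the highest group and cold knockouts the lowest: apart from cold control 16, at 6.70 CPM, every cold control lay above every cold knockout. The cold effect was 0.97 ± 0.24 (SE) in controls, which passed (adjusted p = 0.0401), and -0.78 ± 0.24 in knockouts, which did not (adjusted p = 0.0943). The interaction was -1.75 ± 0.34 (95% interval -2.44 to -1.06, adjusted p = 0.125), a ratio of the fold changes of 3.36 in favour of controls.

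Bhlhe41 lay closest to the threshold of all genes, and settings of the analysis put it on either side. Its adjusted p was 0.00412 by DESeq2 (-1.75) and 0.0461 by limma-voom (-1.64). It was 0.319 without room temperature controls 1 and 2 (-1.58) and 0.678 without the 7 libraries low on the first component (-1.73). Leaving out any 1 library gave -1.88 to -1.65. Without room temperature control 6, cold control 16 or cold knockout 28 it passed, and without any other library it did not. Over 45 alternatives it passed in 7, with the same sign in all.

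No other member of the circadian list came near the threshold. Of 16 clock genes tested, 7 had an interaction above 0 and Bhlhe41 alone reached an unadjusted p under 0.05. Arntl, the activator Bmal1, stood at 0.79 ± 0.49 (adjusted p = 0.787) and Cry2, a repressor, at 0.49 ± 0.26. Bhlhe40, the close relative of Bhlhe41, stood at -0.15 ± 0.36 (adjusted p = 0.958). The labels do not say at what time of day the muscle was taken.

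The promoter of Bhlhe41 is shown because it is the gene nearest to a call, and those of Thrsp, Acly and Scd because these lipogenic genes had the larger cold response in knockouts. Sequences are RefSeq's for rat assembly GRCr8, from 250 bases before to 50 after the start site that the table takes for each gene, and 101 of the 126 genes named by rule have one in the table used. For Bhlhe41, Acly and Scd that site lies inside the widest RefSeq span of the gene. Capitals mark matches on either strand to the E-box CACGTG, which clock factors and Bhlhe41 itself bind, to the CCAAT box, a common element of promoters near the start site, or to the GC box, which Sp1 binds and which was searched as the letters GGGCGG.
Bhlhe41 (chr4:180569306-180569605, minus strand): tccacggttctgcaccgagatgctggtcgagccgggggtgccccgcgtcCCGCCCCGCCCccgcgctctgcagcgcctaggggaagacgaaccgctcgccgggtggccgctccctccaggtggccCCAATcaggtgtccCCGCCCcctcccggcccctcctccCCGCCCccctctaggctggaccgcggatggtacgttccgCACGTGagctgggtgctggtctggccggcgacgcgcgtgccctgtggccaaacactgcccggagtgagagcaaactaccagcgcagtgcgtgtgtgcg
Thrsp (chr1:161138915-161139214, minus strand): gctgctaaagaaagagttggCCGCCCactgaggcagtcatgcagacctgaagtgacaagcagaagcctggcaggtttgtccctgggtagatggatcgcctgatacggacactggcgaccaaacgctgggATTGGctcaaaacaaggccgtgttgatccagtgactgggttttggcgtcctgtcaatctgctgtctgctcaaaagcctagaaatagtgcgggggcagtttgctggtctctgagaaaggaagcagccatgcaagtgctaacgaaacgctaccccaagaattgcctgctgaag
Acly (chr10:85963582-85963881, minus strand): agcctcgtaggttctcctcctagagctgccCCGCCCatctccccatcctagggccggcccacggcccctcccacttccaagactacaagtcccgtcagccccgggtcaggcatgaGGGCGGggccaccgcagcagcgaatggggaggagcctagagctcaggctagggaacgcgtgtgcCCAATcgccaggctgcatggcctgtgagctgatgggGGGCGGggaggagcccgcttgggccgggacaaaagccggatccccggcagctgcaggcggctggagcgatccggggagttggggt
Scd (chr1:253231682-253231981, minus strand): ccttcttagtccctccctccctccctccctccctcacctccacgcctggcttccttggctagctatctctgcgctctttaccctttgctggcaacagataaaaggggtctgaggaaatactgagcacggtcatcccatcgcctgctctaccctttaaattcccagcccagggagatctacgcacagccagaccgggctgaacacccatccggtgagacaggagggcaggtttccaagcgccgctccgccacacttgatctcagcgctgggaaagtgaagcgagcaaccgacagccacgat

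The Bhlhe41 window held 1 E-box, 1 CCAAT box and 4 GC boxes. Thrsp held 1 CCAAT box and 1 GC box, and Acly 1 CCAAT box and 3 GC boxes. Over all 27457 promoters of that length, 6.65% held an E-box, 37.7% a CCAAT box and 34.9% a GC box. A sterol element (TCACNCCAC, 1.13% of promoters) and the nuclear receptor core motif (AGGTCA, 15.7%), also searched on both strands, had no match in the 4 windows, and Scd had no match to any of the 5. These letters describe the windows and were not tested against expression.

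**Figure D2:**
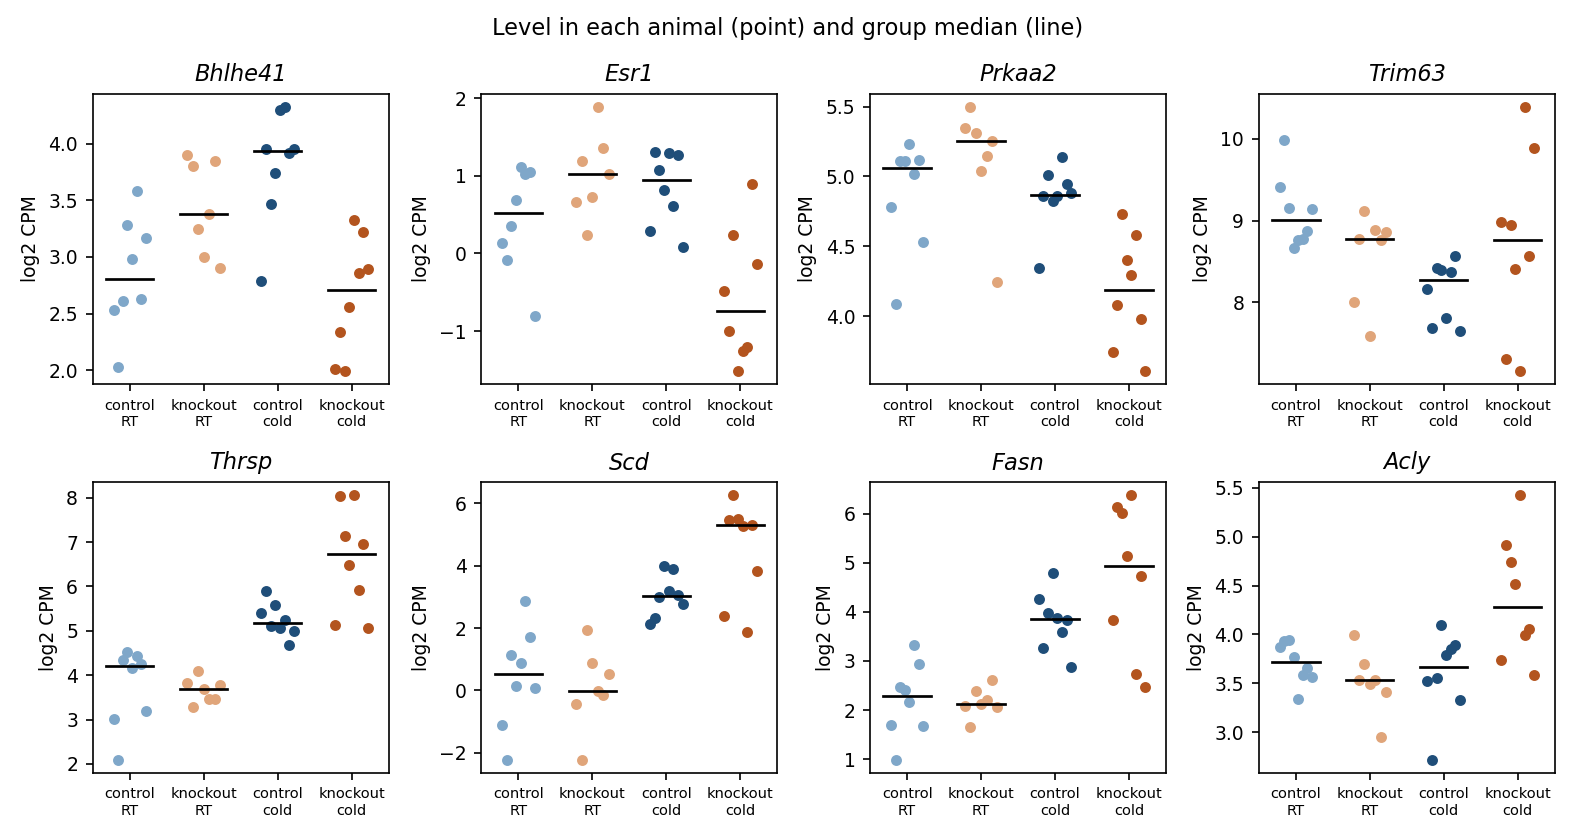
Each panel shows 1 gene, each point the log2 CPM of 1 animal (prior count 2) and each line a group median, by genotype and temperature (RT, room temperature). Bhlhe41, Esr1 and Prkaa2 are lowest in cold knockouts, Thrsp, Scd, Fasn and Acly have their highest values there with a wide spread, and Trim63 spreads over more than the range of the other groups.

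Among lipogenic genes the estimated response to cold was larger in knockouts than in controls, and again no interaction passed. Thrsp, a nuclear protein that thyroid hormone and feeding induce and that promotes fatty acid synthesis, stood at 4.07 to 22.7 CPM (median 18.4) in room temperature controls and at 25.3 to 59.0 CPM (median 36.2) in cold controls. In knockouts it stood at 9.51 to 16.8 CPM (median 12.7) at room temperature and at 33.5 to 266 CPM (median 107) in the cold. Within each genotype the cold and room temperature groups did not overlap, and 6 cold knockouts lay above the highest cold control. The interaction was 1.97 ± 0.51 (95% interval 0.93 to 3.02, adjusted p = 0.452).

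Scd, the desaturase that makes oleate, ran from 0 to 7.10 CPM (median 1.26) in room temperature controls and from 4.13 to 15.5 CPM (median 7.99) in cold controls. In knockouts it ran from 0 to 3.61 CPM (median 0.775) at room temperature and from 3.47 to 76.3 CPM (median 39.0) in the cold. Of the 8 cold knockouts 5 lay above the highest cold control and 1 below the lowest. Its interaction was 2.67 ± 0.90 (95% interval 0.83 to 4.50, adjusted p = 0.538).

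Fasn, fatty acid synthase, had cold effects of 1.58 ± 0.43 in controls and 3.13 ± 0.47 in knockouts, where cold animals ran from 5.30 to 82.7 CPM (median 30.6), and an interaction of 1.56 ± 0.61 (adjusted p = 0.597). Acly, ATP citrate lyase, had another pattern: its cold effect was -0.07 ± 0.21 in controls, with a median of 12.6 CPM against 12.9 CPM at room temperature. In knockouts it rose by 0.97 ± 0.22 (adjusted p = 0.0199), from a median of 11.4 to 19.5 CPM, and the interaction was 1.04 ± 0.31 (95% interval 0.41 to 1.66, adjusted p = 0.452).

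Of 13 tested genes of lipogenesis and NADPH supply, 11 had an interaction above 0, with a median of 0.42 against 0.08 over all genes. This list, like the others here, was chosen with earlier results of these data known, so its median is a description and no test. The 4 genes just described reached an unadjusted p under 0.05 and 0 were called. Slc25a1, the mitochondrial citrate exporter (0.91 ± 0.52), and Tkt, transketolase (0.42 ± 0.24), had values above 0. Acss2 stood at -0.00063 ± 0.28, Scd2 at 0.03 ± 0.37, and Acacb, the acetyl-CoA carboxylase of muscle mitochondria, at 0.13 ± 0.24. Of 13 regulators of lipogenic transcription, a list that also holds Bhlhe41, 9 were above 0 (median 0.10): Srebf1, the sterol regulatory factor of lipogenesis, stood at 0.57 ± 0.49 and Klf15 at 0.72 ± 0.60. Of 15 cholesterol synthesis genes 11 were above 0 (median 0.12), and 0 were called. Genes of fatty acid uptake and oxidation were more often below 0: 9 of 28 lay above it, with a median of -0.13. The importer Cd36 (-0.75 ± 0.33) and Decr1, an enzyme that breaks down unsaturated fatty acids (-0.69 ± 0.32), had the smallest p of that list (adjusted p = 0.644 and 0.656). The mean level was 3.85 CPM for Cd36, few counts per library, and 146 CPM for Decr1.

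Adipocyte markers moved in the same direction as the lipogenic genes. Of 17 white adipocyte markers 15 had an interaction above 0 (median 0.75), 2 reached an unadjusted p under 0.05 and 0 were called. These 2 were the fatty acid carrier Fabp4 (0.75 ± 0.33) and the amino acid transporter Slc7a10 (1.62 ± 0.72). Adipoq, the adipocyte hormone adiponectin, stood at 0.93 ± 0.65, Lep at 1.24 ± 0.72, Plin1 at 0.80 ± 0.61 and Cfd at 0.40 ± 0.54. The summed level of Adipoq, Cfd, Fabp4 and Plin1 was 134 to 646 CPM (median 467) in room temperature controls, 343 to 549 CPM (median 467) in room temperature knockouts and 365 to 642 CPM (median 436) in cold controls. In cold knockouts it was 421 to 1073 CPM (median 743), and 4 of those 8 animals lay above every animal of the other groups. Of the defining markers Lep was at 0 CPM in its lowest library, and Adipoq at 0.313 CPM and Plin1 at 0.417 CPM in theirs. Their part in the lipogenic result was not tested, because the marker level differed with the group itself.

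Values with the summed marker level as a covariate stood as follows. The interaction of Scd was 0.90 in place of 2.67 (adjusted p = 0.737), that of Fasn 0.88 in place of 1.56 (adjusted p = 0.558) and that of Thrsp 1.27 in place of 1.97 (adjusted p = 0.0722), while that of Acly was 1.01 in place of 1.04 (adjusted p = 0.0908). Bhlhe41 passed with it (-1.91, adjusted p = 0.00424), as did Esr1 (-2.37, adjusted p = 0.0168), Prkaa2 (-1.01, adjusted p = 0.0293) and Trim63 (1.51, adjusted p = 0.0467). Over all genes that fit called 179 interactions, 12 higher and 167 lower. Without room temperature controls 1 and 2, whose marker sums were 145 and 134 CPM, it called 367, 56 higher and 311 lower. In that fit, added after seeing the data, the lipogenic estimates were 0.94 for Thrsp, 1.11 for Scd, 0.51 for Fasn and 0.59 for Acly. Prkaa2 did not pass there (-0.88, adjusted p = 0.0746), while Bhlhe41, Esr1 and Trim63 did. Without those 2 animals and with no covariate, 0 genes passed, and Thrsp stood at 2.24, Scd at 3.07, Fasn at 1.79 and Acly at 0.98. White adipocyte markers in the fit without those 2 animals had 15 of 17 above 0 (median 0.89). Of them 9 reached an unadjusted p under 0.05 by edgeR, against 2 with all libraries, and Adipoq stood at 1.34. Without the 7 libraries low on the first component the estimates were 1.53 for Thrsp, 2.52 for Scd, 0.82 for Fasn and 0.63 for Acly, and the median of the lipogenic list was 0.10.

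**Figure D3:**
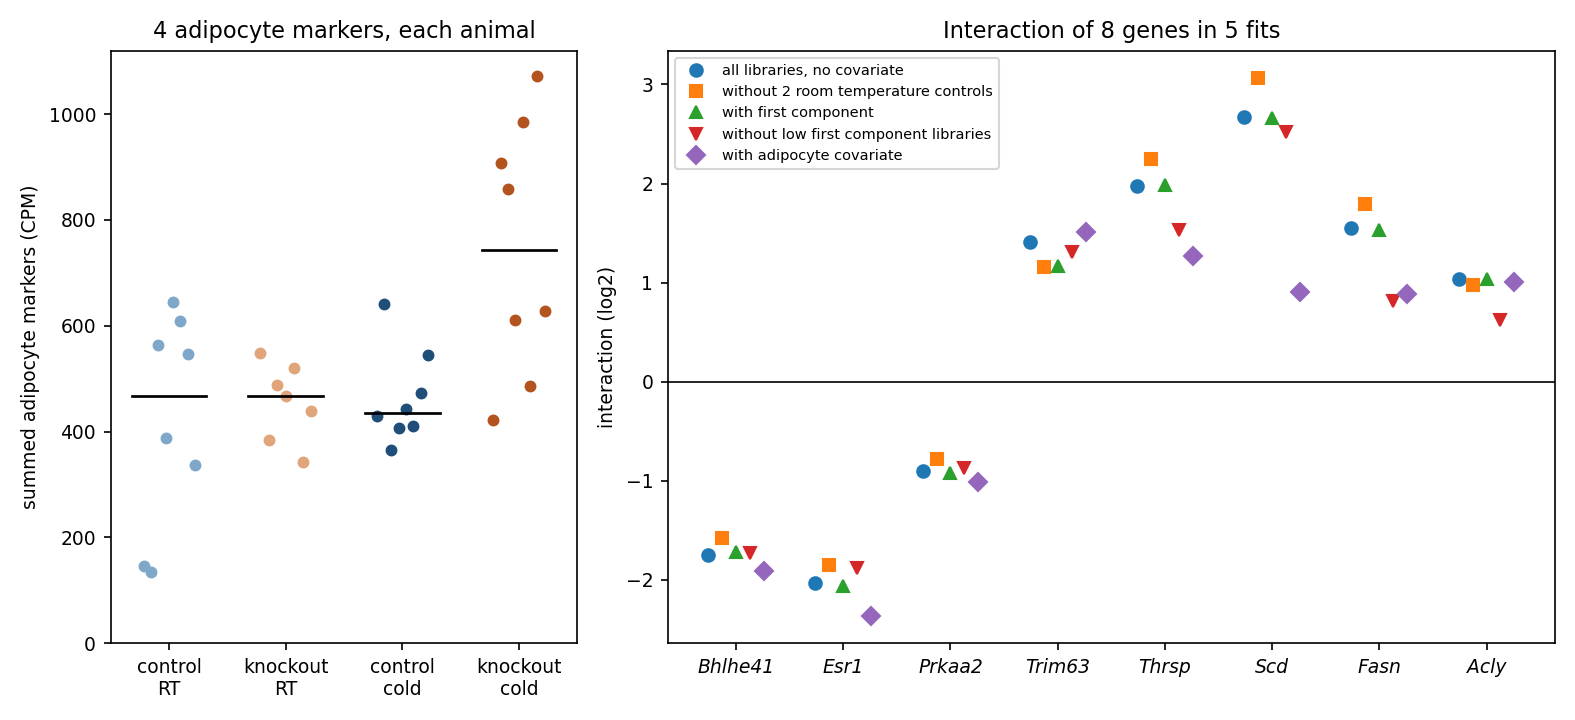
Left, the summed CPM of 4 adipocyte markers in each animal (points) with group medians (lines); 4 cold knockouts exceed every other animal. Right, the log2 interaction of 8 genes in 5 fits: Bhlhe41, Esr1 and Prkaa2 stay below 0 and the others above 0 in all 5, and Scd moves most, from 2.67 to 0.90 with the adipocyte covariate.

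The genes with the next smallest p mostly had a cold effect above 0 in controls and below 0 in knockouts. That shape held for 16 of the 20 smallest p (among named genes averaging 1 CPM or more), and for 418 of the 737 genes at an unadjusted p under 0.05 (56.7%) against 16.4% of all genes; a large difference between effects is more easily reached when their signs differ. Esr1, the estrogen receptor alpha, stood at 0.355 to 1.95 CPM (median 1.23) in room temperature controls and at 0.844 to 2.26 CPM (median 1.71) in cold controls. In knockouts it stood at 0.962 to 3.49 CPM (median 1.82) at room temperature and at 0.135 to 1.65 CPM (median 0.394) in the cold, so that cold knockouts were the lowest group by median, with overlap, at a level of few counts per library. Its interaction was -2.03 ± 0.53 (95% interval -3.11 to -0.95, adjusted p = 0.452), and the fall in knockouts passed (-1.64 ± 0.39, adjusted p = 0.0253).

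Prkaa2, the alpha-2 catalytic subunit of AMP-activated kinase and a sensor of energy state in muscle, was alike in 3 groups. It stood at 16.8 to 37.5 CPM (median 33.2) and 20.1 to 35.1 CPM (median 29.1) in room temperature and cold controls, and at 18.8 to 45.0 CPM (median 37.9) in room temperature knockouts. In cold knockouts it stood at 11.98 to 26.4 CPM (median 18.1). The cold effect was -0.04 ± 0.17 in controls and -0.95 ± 0.18 in knockouts, of which the second passed (adjusted p = 0.00472), and the interaction was -0.91 ± 0.25 (95% interval -1.42 to -0.39, adjusted p = 0.452). Rnf150, a ring finger protein, had the same pattern, with -0.30 ± 0.17 in controls, -1.16 ± 0.17 in knockouts and an interaction of -0.87 ± 0.24. Dusp8, a phosphatase that inactivates stress-activated kinases, fell in knockouts by 1.61 on the log2 scale and stood at -0.35 ± 0.25 in controls (interaction -1.26 ± 0.36).

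The remaining genes of the 20 had adjusted p = 0.452 throughout. Lower in the knockout response were Tmem131 (-1.74 ± 0.44), a membrane protein of collagen secretion, Atic (-1.76 ± 0.49), which completes purine synthesis, and the import receptor Kpna4 (-1.08 ± 0.30). So were the protein kinase subunit Csnk2a1 (-0.85 ± 0.23), the actin methyltransferase Setd3 (-0.86 ± 0.23) and the GTPase regulator Arhgap5 (-0.78 ± 0.21). The nucleolar protein Nol11 (-0.76 ± 0.21), Mia2 (-0.97 ± 0.27) and Trip11 (-0.69 ± 0.19), both of transport between endoplasmic reticulum and Golgi, and Nub1 (-1.51 ± 0.42), a regulator of the ubiquitin-like protein Nedd8, followed. Tigd4 (-1.80 ± 0.47), Ankrd26 (-1.38 ± 0.37), Rprd1a (-1.46 ± 0.40) and Nisch (-1.76 ± 0.49) had means of 1.08 to 1.93 CPM, so each rests on few counts per library. Higher was Atat1, the acetyltransferase of alpha-tubulin (0.98 ± 0.26), which fell in cold controls (-0.77 ± 0.18, adjusted p = 0.0276) and stood at 0.20 ± 0.19 in knockouts.

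**Figure D4:**
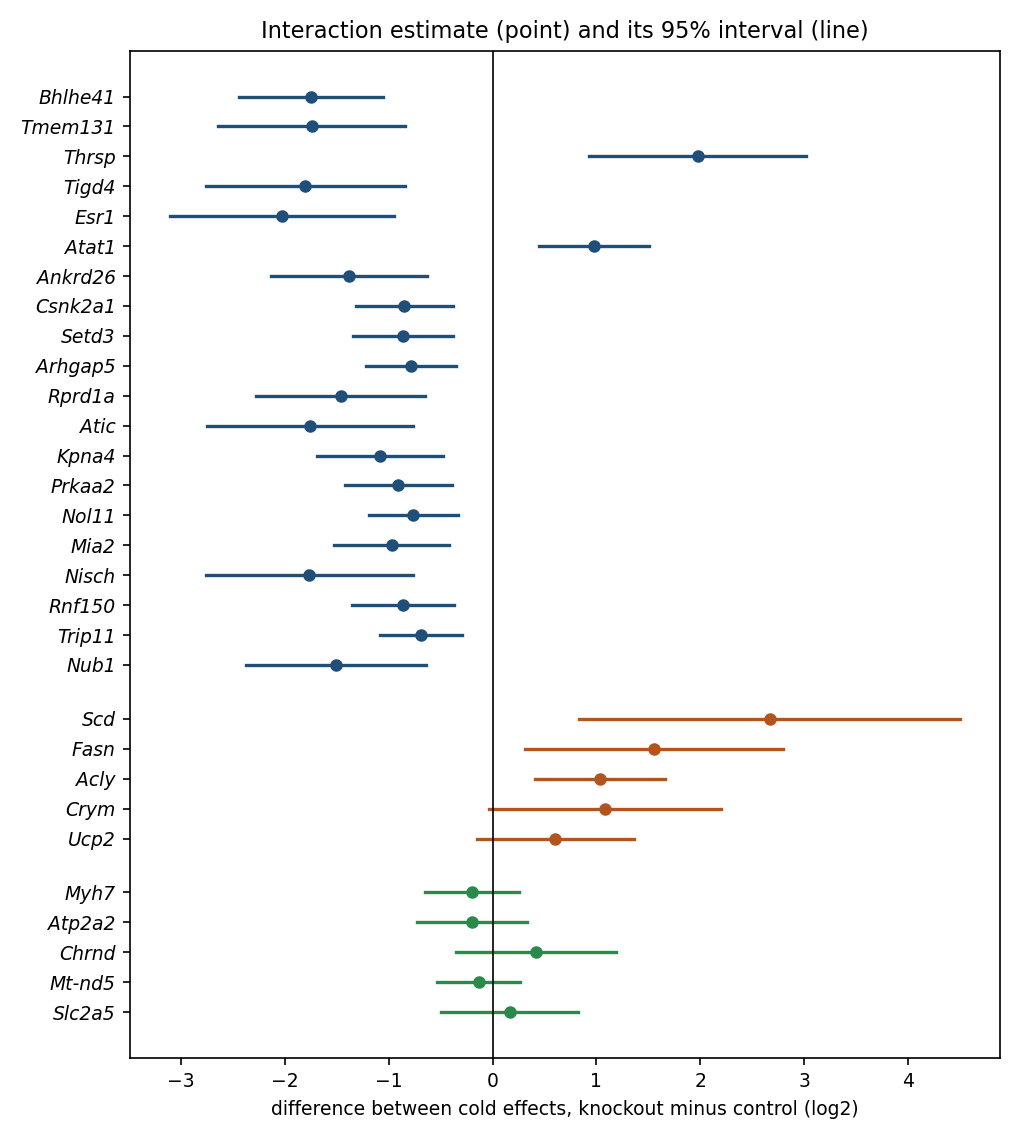
Points are log2 interactions (knockout minus control cold effect) and lines their 95% intervals; blue, the 20 genes with the smallest p, orange, Scd, Fasn, Acly, Crym and Ucp2, green, 5 genes whose cold effect passed in both genotypes. The blue genes were picked by p, so their intervals leave out 0 although no adjusted p is under 0.05. The green intervals, such as that of Myh7 from -0.65 to 0.25, hold 0. Their genes come from those that passed in both, so the contrast of blue and green is no test.

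Immediate early genes, which contraction and stress induce within minutes, had lower cold effects in controls than in knockouts. Of 18 tested 17 had an interaction above 0 (median 0.68), and the median cold effect was -0.66 in controls and -0.02 in knockouts. Zfp36, which promotes decay of inflammatory mRNAs (1.53 ± 0.56, adjusted p = 0.548), the stress factor Atf3 (1.29 ± 0.55) and Klf4 (0.74 ± 0.36) reached an unadjusted p under 0.05, and 0 were called. By limma-voom these were 0.70, 0.74 and 0.48. Zfp36 was also 0.89 without room temperature controls 1 and 2, and Atf3 0.81 without cold knockout 25. Zfp36 stood at 2.28 to 24.1 CPM (median 8.59) and 2.81 to 5.05 CPM (median 4.34) in room temperature and cold controls, and at 3.07 to 13.4 CPM (median 5.65) and 2.47 to 14.3 CPM (median 4.50) in the knockouts. The 4 groups overlapped, with the widest spread in room temperature controls. Fos, whose fall in cold controls passed, had an interaction of 1.05 ± 0.60 (adjusted p = 0.751), with room temperature control 8 above all others of its group. It was 0.56 without that animal, 0.63 without cold knockout 29 and 0.47 by limma-voom. With scores on the first component in the model the median of the list was 0.55, and without the 7 libraries low on it 0.47.

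Trim63, the muscle ubiquitin ligase MuRF1 that marks atrophy, was at 405 to 1015 CPM (median 516.5) in room temperature controls and at 202 to 378 CPM (median 309) in cold controls, groups that did not overlap. In knockouts it was at 192 to 556 CPM (median 439) at room temperature and at 143 to 1346 CPM (median 437) in the cold, so cold knockouts held both the lowest and the highest animal of the study. The interaction was 1.41 ± 0.46 (95% interval 0.47 to 2.35, adjusted p = 0.524), and limma-voom, which gives less weight to scattered libraries, put it at 0.59. Of 21 atrophy and autophagy genes 17 were above 0 (median 0.21), with Becn1 (0.46 ± 0.22) above and Fbxo40 (-1.01 ± 0.47) below 0 at an unadjusted p under 0.05. Fbxo32, the other ligase of muscle atrophy, stood at -0.25 ± 0.38.

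Slow fibre genes, whose cold effects passed in both genotypes for Myh7, Atp2a2 and Myoz2, had interactions around 0. Of 20 slow and oxidative fibre genes 11 had an interaction above 0, with a median of 0.01, or -0.02 under upper quartile scaling, and for 16 the 95% interval lay between -1 and 1. Myh7, the slow myosin, stood at 1441 to 3154 CPM and 3558 to 5653 CPM in room temperature and cold controls, and at 1712 to 2655 CPM and 2586 to 5085 CPM in knockouts. Its interaction was -0.20 ± 0.22 (95% interval -0.65 to 0.25), so a cold effect in knockouts smaller than that of controls by up to 0.65, or larger by up to 0.25, is within the interval. Atp2a2, the slow calcium pump, gave -0.19 ± 0.26 (-0.72 to 0.34), Tpm3, slow tropomyosin, -0.37 ± 0.30 (-0.97 to 0.24), and the calcineurin-binding Z-disc protein Myoz2 -0.07 ± 0.24 (-0.55 to 0.41). Of 18 fast fibre genes 9 were above 0 (median -0.0031); among them Myh1 was at -0.54 ± 0.20 (-0.95 to -0.13, adjusted p = 0.548).

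Genes of muscle heat production other than Ucp1 gave no interaction that passed. Sln, sarcolipin, which makes the calcium pump hydrolyse ATP without moving calcium, stood at 1.86 to 91.5 CPM in cold controls and at 14.6 to 111 CPM in cold knockouts. Its interaction was 0.30 ± 0.78, with an interval of -1.28 to 1.89 too wide to place it, and it was -0.12 with the first component as a covariate. Ucp2, a mitochondrial carrier related to Ucp1, rose in both genotypes: controls went from a median of 4.88 to 10.9 CPM and knockouts from 6.13 to 24.2 CPM. Its interaction was 0.61 ± 0.37 (-0.15 to 1.36, adjusted p = 0.780). Ucp3, the muscle uncoupling protein, gave 0.53 ± 0.46 (-0.39 to 1.46). Crym, a cytosolic thyroid hormone binding protein, gave 1.08 ± 0.55 (-0.04 to 2.21) and 0.29 without cold knockout 25, in which it stood at 183 CPM against a group median of 29.1 CPM. Of 14 thyroid hormone genes 9 were above 0 (median 0.24), and the receptors Thra and Thrb stood at -0.05 ± 0.21 and -0.12 ± 0.14.

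Transcripts encoded in mitochondrial DNA had median cold effects of -0.37 in controls and -0.50 in knockouts, and 3 of 12 had an interaction above 0 (median -0.13). Mt-atp8, a subunit of ATP synthase, stood apart from its list: it was at 528 to 2343 CPM (median 1911) and 901 to 1497 CPM (median 1300) in room temperature and cold controls. In knockouts it went from 1353 to 3240 CPM (median 1916) at room temperature to 514 to 1174 CPM (median 684) in the cold, with no overlap. The interaction was -1.002 ± 0.338 (95% interval -1.69 to -0.31, adjusted p = 0.538). Over 45 alternatives it ran from -1.32, with the adipocyte covariate, where alone it passed, to -0.70 by limma-voom. Without room temperature controls 1 and 2 it was -0.72, and without the libraries low on the first component -0.83. Mt-atp6, whose reading frame overlaps that of Mt-atp8 on the same transcript, gave -0.10 ± 0.21. Reads of the 2 genes may have been split between them, which was not tested. Mt-nd5, a complex I subunit, fell in both genotypes with an interaction of -0.13 ± 0.20 (-0.53 to 0.26).

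A cold effect passed in either genotype for 190 genes. The 35 that passed in both all moved in the same direction, and for all 35 the 95% interval of the interaction held 0. Passing in both picks genes with large effects in each, so that these counts are a description and no test of equal responses. Their median size of cold effect was 1.02 in controls and 0.99 in knockouts, and for 28 of them the interval lay between -1 and 1. These included Parm1 (-0.28 ± 0.28), Bdh1, an enzyme of ketone body metabolism (0.32 ± 0.33), the fructose transporter Slc2a5 (0.17 ± 0.32), the antioxidant enzyme Gpx1 (-0.08 ± 0.21) and Smarcd2, a chromatin remodelling subunit (0.05 ± 0.15). Of 104 genes that passed in knockouts only, 91 had the same sign in controls, at a median size of 0.40 there and 0.95 in knockouts, and 40 had an interaction p under 0.05. Of 51 that passed in controls only, 48 had the same sign in knockouts, at a median size of 0.99 in controls and 0.46 in knockouts, and 20 had an interaction p under 0.05. A gene that passed in 1 genotype was picked for a large estimate in it, so these counts of 40 and 20 are not independent support for a difference. The 16 genes of opposite sign included Bhlhe41, Esr1, Atat1, Arhgap5 and Acly. Over all 10082 genes the cold effects of the 2 genotypes, which come from different animals, had a Pearson correlation of 0.353 across genes.

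Genes of energy and glucose signalling had 0 calls. Their counts at an unadjusted p under 0.05 stand beside the 7.31% of all genes that reached it. Of 22 insulin signalling genes 9 were above 0 (median -0.01), with Tbc1d4, which restrains glucose transporter traffic (-1.19 ± 0.41), and Gsk3b, the kinase of glycogen synthase (-0.79 ± 0.28), at an unadjusted p under 0.05. Of 32 glycolysis and glycogen genes 17 were above 0 (median 0.04). Ppp1r3a, which ties protein phosphatase 1 to glycogen in muscle, gave -0.57 ± 0.18 (adjusted p = 0.459). Pkm, pyruvate kinase, gave -1.55 ± 0.66 (adjusted p = 0.623) at a mean of only 7.14 CPM. Of 24 regulators of mitochondrial biogenesis 13 were above 0 (median 0.01), with 2 higher and 2 lower at an unadjusted p under 0.05. Pprc1, a coactivator of respiration genes, gave 1.05 ± 0.42 and Prkag3, a regulatory subunit of AMP-activated kinase, 0.90 ± 0.35. Esrrg, the estrogen-related receptor of oxidative muscle, gave -0.70 ± 0.29. It rose in controls by 1.14 ± 0.20 (adjusted p = 0.00576) and stood at 0.44 ± 0.21 in knockouts. Ppargc1a, the coactivator PGC-1 alpha, gave -0.40 ± 0.45 (-1.31 to 0.51).

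Markers of other cell types had 0 calls. Above 0 were 12 of 17 endothelial markers (median 0.11), 8 of 18 immune markers (median -0.05), 6 of 8 erythrocyte markers (median 0.17), 10 of 12 Schwann cell and nerve markers (median 0.30), 4 of 13 fibroblast and tendon markers (median -0.04) and 7 of 12 smooth muscle and pericyte markers (median 0.10). Ntf4, a neurotrophin also listed among the secreted muscle factors, fell in cold knockouts (-0.92 ± 0.18, adjusted p = 0.00622). In controls its cold effect was -0.15 ± 0.17, and the interaction was -0.77 ± 0.25 (adjusted p = 0.486). Its level in the cold was lower in knockouts than in controls (-0.99 ± 0.17, adjusted p = 0.0310 by edgeR). That comparison of levels, which is not the interaction, called 1 gene of 10082. The mean of Ntf4 was 2.85 CPM. Of 5 brown and beige adipocyte genes tested 3 were above 0 (median 0.03).

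The other lists held no call either. Above 0 were 12 of 19 genes of embryonic myosin, satellite cells and denervation (median 0.05), among them Chrnd, the delta subunit of the acetylcholine receptor (0.42 ± 0.38). Myf6, a myogenic factor, gave 0.91 ± 0.38, and Myh3, embryonic myosin, -0.71 ± 0.58 (-1.88 to 0.47), or -0.18 without cold control 21. Of the endoplasmic reticulum stress genes, the stress-induced Ddit4 stood at 0.88 ± 0.41 and Xbp1, with a mean of only 1.04 CPM, at -1.12 ± 0.52. The count above 0 for that list was 15 of 22 (median 0.10). For heat shock proteins it was 17 of 25 (median 0.16), with Hspa9, at a mean of only 2.23 CPM, at -1.15 ± 0.52. For antioxidant genes it was 14 of 23 (median 0.03), with the heme oxygenase Hmox1 at 0.78 ± 0.34 and Gpx3 at -0.49 ± 0.23. For extracellular matrix it was 14 of 30 (median -0.07, with Ccn2, a matrix-inducing growth factor, at 1.80 ± 0.80). Triglyceride and lipid droplet genes had 12 of 20 above 0 (median 0.11), calcium cycling and uncoupling genes 14 of 21 (median 0.07), creatine genes 6 of 7 (median 0.20) and secreted muscle factors 10 of 17 (median 0.23).

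**Figure D5:**
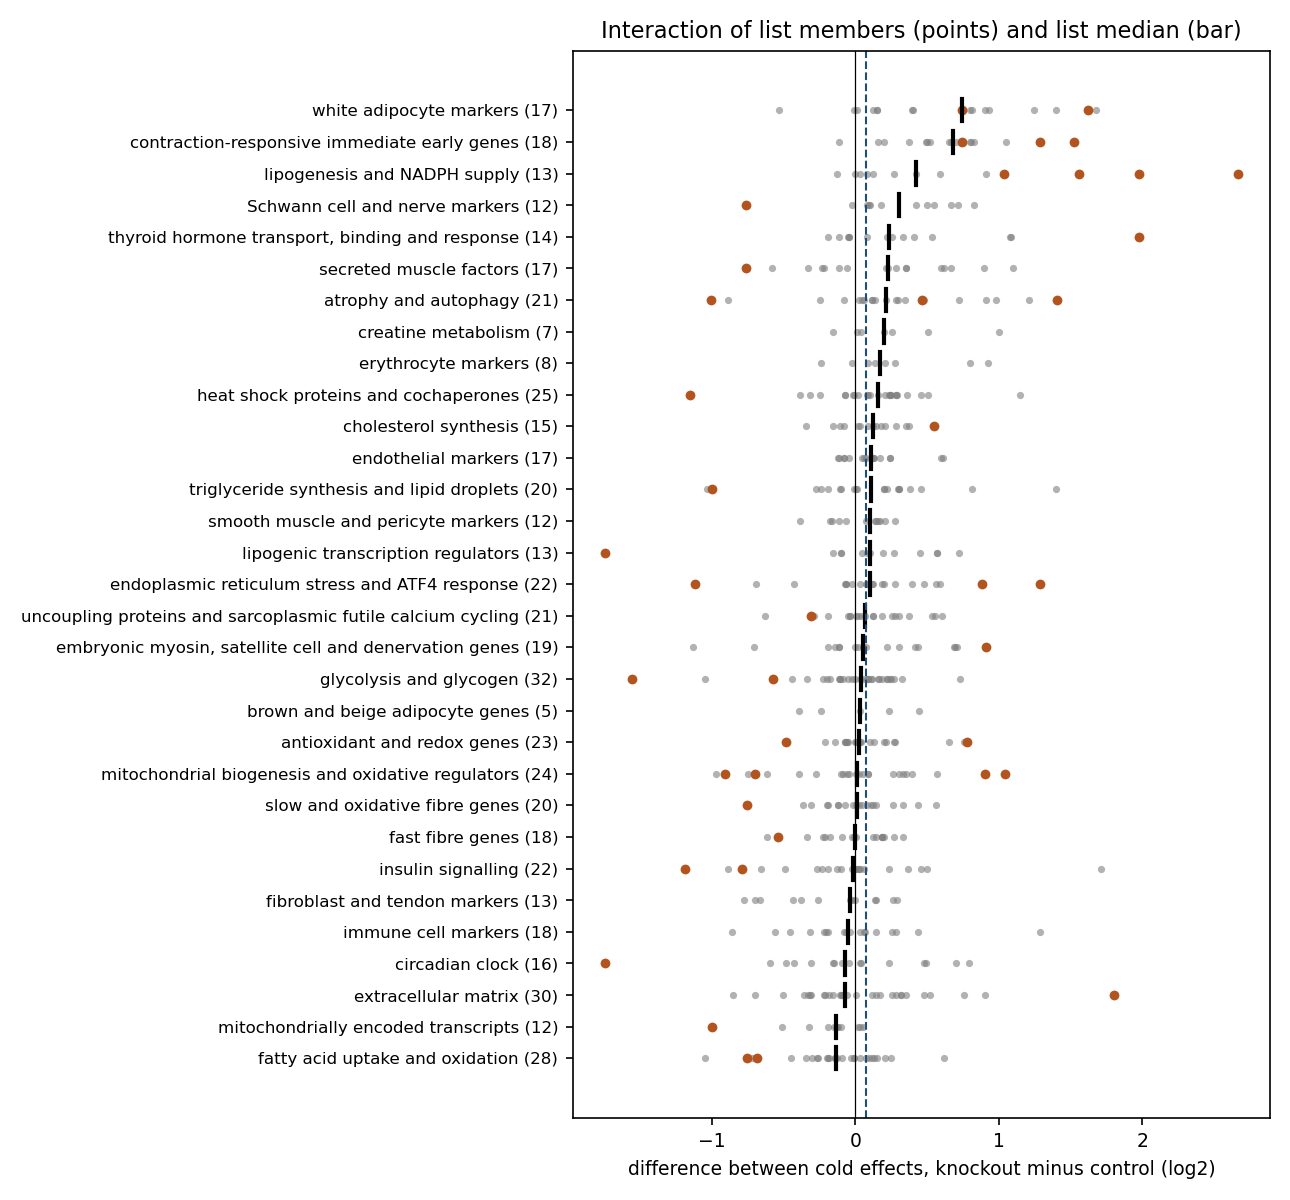
Each row is a gene list (number of genes tested in brackets), each point the log2 interaction of 1 member and each bar the list median; orange points have an unadjusted p under 0.05, and the dashed line is the median of all genes, 0.08. White adipocyte markers, immediate early genes and lipogenic genes have the highest medians (0.75, 0.68 and 0.42), fatty acid oxidation and mitochondrially encoded transcripts the lowest (both -0.13).

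The first principal component ran along with the interaction estimates. Across the 10082 genes its loadings and the interactions had a Pearson correlation of 0.351, a description over genes that are not independent and come from the same libraries. With that component as a covariate 0 interactions passed by edgeR, 1250 genes had an unadjusted p under 0.05, and the split turned to 693 higher and 557 lower. Group medians of its score were 22.3 and 4.12 in room temperature and cold controls and 13.2 and 14.3 in knockouts. Its part in the result was not tested.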

How the data were processed

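Gastrocnemius RNA of 31 rats was measured, 1 library each. The deposited table holds raw counts of reads per gene made by the authors, and a second deposited table holds the authors' normalized signal, equal to those counts divided by 1 size factor per library and not used for tests. The submitters' processing notes name Rnor 6.0 as build and DESeq2 1.22.2; an aligner and a counting tool are not named in the labels. Reads without molecular identifiers include PCR copies.

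Counts were scaled by TMM and filtered by filterByExpr (minimum count 10, minimum total 15) in edgeR 4.0.16, and edgeR's quasi-likelihood test was run on a model of 4 group means over all libraries (27 residual degrees of freedom). P-values are two-sided, adjusted by Benjamini-Hochberg over 10082 genes, with a threshold of 0.05. Each SE was obtained by dividing the absolute log2 estimate by the root of F. P-values measure the spread between animals, and batches are not labelled. Alternatives used DESeq2 1.42.0, limma 3.58.1 and sva 3.50.0 in R 4.3.3.

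Genes named are the 20 smallest interaction p (symbol, mean of at least 1 CPM), up to 3 per list by p, the 10 smallest p of each cold contrast, and fixed genes; other list members are named for their role. Members and all 31 lists were chosen with earlier results of these data known.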

Additional observations from a re-analysis of the deposited data

Results flagged for a closer look

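In 160 groups of 7 or 8 animals (40 genes of the interaction, 4 groups each), 14 had a highest or lowest animal far from the rest by Dixon's criterion. For 1 group alone chance gives about 1 in 20. The 40 genes were measured in the same libraries, so the 160 groups are not independent and that rate is no yardstick for the 14. Room temperature knockout 15 was the lowest of its group in 5 genes, with log2 CPM of 3.10 for Setd3, 4.27 for Arhgap5, -0.47 for Rprd1a, 4.25 for Prkaa2 and 1.34 for Nub1. Cold control 16 was the lowest in 4, with 5.87 for Csnk2a1, 3.19 for Setd3, 4.35 for Prkaa2 and -1.19 for Pdk4. Among cold knockouts, animal 24 was low in Nisch (-1.27), animal 31 in Atp2a2 (8.72) and animal 29 in Mss51 (4.79). Room temperature knockout 10 was low in Adipoq (3.64), and room temperature control 8 was high in Fos (6.57).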

How the results depend on the processing

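Replicate numbers run from 1 to 31 without repeats. No paired analysis was possible because no number is shared between groups. Against 0 interactions called by edgeR, DESeq2 called 1, limma-voom 4, the adipocyte covariate 179 and the same covariate without room temperature controls 1 and 2 (chosen after seeing the data) 367. The call was 0 under relative log expression or upper quartile scaling, no filter, a mean of at least 5 CPM, robust dispersion, without those 2 controls, with the first component, 1 surrogate variable or the mitochondrial share as a covariate, and without the 7 libraries low on the first component (chosen after seeing the data). Leaving out 1 library gave 0 to 1. Calls of the cold effect in controls, 86, became 220 (DESeq2), 687 (limma-voom), 38 (without controls 1 and 2), 379 (first component), 285 (surrogate variable), 53 (without low libraries) and 141 (adipocyte covariate without controls 1 and 2). Single omissions gave 36 (without cold control 21) to 154 (without room temperature control 4), and 53 and 43 without room temperature controls 1 and 2, 56, 45 and 52 without cold controls 17, 20 and 22. Calls in knockouts, 139, became 328 (DESeq2), 536 (limma-voom), 379 (without controls 1 and 2), 674 (first component), 577 (surrogate variable), 610 (adipocyte covariate), 40 (mitochondrial share) and 838 (adipocyte covariate without controls 1 and 2). Single omissions gave 56 (without room temperature knockout 14) to 231 (without room temperature control 2), and 219 without room temperature control 1, 213 without cold control 17, 90, 86 and 79 without room temperature knockouts 9, 11 and 13, 230 and 80 without cold knockouts 28 and 30. The cause was not tested. The 737 genes at an unadjusted p under 0.05 became 1120 without cold knockout 28, 1113 by limma-voom and 1132 with a surrogate variable. They became 1374 with the adipocyte covariate and 2719 with it and without controls 1 and 2. A mean of at least 5 CPM, which tests fewer genes, gave 455. Without room temperature control 2 the count was 554, the lowest of the single omissions. Without controls 1 and 2 it was 618, of which 393 were among the 737. Without the 7 low libraries it was 603, of which 383 were among the 737. Of 126 named genes 18 changed sign in at least 1 alternative, among them Chrnd, Mt-nd5, Sln, Myoz2, Slc2a5, Adipoq and Slc7a10; the median of white adipocyte markers was -0.11 with the covariate built from 4 of them. Low genes are limited by depth: at 1 CPM even the largest library, of 11859690 counts, holds few reads.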
